A study of Hakea laurina with 6 samples.

Results

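The transcripts described here are 59 contigs of the Hakea laurina root assembly that match Arabidopsis ABC transporters, MATE efflux proteins, aquaporins or MtN21-like transporters. They were chosen by their annotation and by their measured values, from a deposited table of 7819 annotated contigs that differed between 2 root types, the mature cluster root (MCR) and the tip of the lateral root that bears the clusters (TCR). Of these 7819 rows, 91 carried words for the 4 families in the description of their Arabidopsis match, and 61 of the 91 had a counts-per-million (CPM) value of 1 or more in all 3 libraries of MCR or in all 3 of TCR. A further 2 MATE contigs higher in MCR, TRINITY_DN255355_c0_g1 and TRINITY_DN4986_c0_g1, were left out by name, which gave 59 contigs matching 43 Arabidopsis genes. The difference between MCR and TCR was used to choose the contigs, so their fold changes between root types are a description and carry no test.

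RNA-Seq was performed on 3 MCR libraries and 3 TCR libraries from seedlings about 3 yr old. All plants were grown in low-phosphorus hydroponics, in groups of 6 seedlings per 4 L of solution without P, to which 6.4 μM phosphate was added at intervals of 2 to 3 months, so the root types share 1 treatment. Root types follow the library titles, whereas each library's tissue label gives the opposite root type, and every direction below would be reversed if those labels were right. Neither the titles nor the labels say whether the libraries of a root type came from separate plants or containers, so the spread between them may be technical.

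Cluster roots are dense groups of short-lived rootlets that many Proteaceae form in P-impoverished soil and that release carboxylates and phosphatases when mature. Aquaporins are membrane channels for water and small neutral solutes. Plasma membrane intrinsic proteins (PIP) act at the cell surface, tonoplast intrinsic proteins (TIP) mainly at the vacuole, and nodulin-26-like intrinsic proteins (NIP) and small basic intrinsic proteins (SIP) make up the remaining plant groups found here. ABC transporters use ATP to move hormones, lipids, defence compounds and other metabolites across membranes. MATE proteins exchange cations for organic compounds or organic anions, and MtN21-like proteins, named after a nodulin of Medicago truncatula, include amino acid exporters in Arabidopsis.

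The estimated counts summed to between 13583740 and 19119494 per library over 183999 contigs, of which 49813 passed the filter of the fit and were compared, all 59 transporter contigs among them. Single values below are CPM after TMM normalization, each given for TCR1, TCR2 and TCR3 and then for MCR1, MCR2 and MCR3. Root tip markers followed the titles, with the summed CPM of 9 contigs for MCM proteins and B-type cyclins at 271, 259 and 151 in TCR and at 10.9, 8.55 and 7.72 in MCR. The summed CPM of 59 purple acid phosphatase, phosphate transporter 1 and HalALMT1 contigs lay between 2584 and 2919 in TCR and between 17624 and 27362 in MCR. Libraries of the same number deviated together from their root type means, most of all TCR3 and MCR3, so values are given library by library.

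Past the CPM minimum, most of the transporter contigs were higher in root tips. Of the 59 contigs, 41 were higher in TCR and 18 in MCR. The median log2 fold change (MCR over TCR) was -2.68, against a median of 0.57 over all contigs tested. The latter were chosen neither for a difference between root types nor by the CPM minimum of the members, so the medians are not like for like. Among all 4604 rows of the deposited table past the same CPM minimum, 25.5% were higher in MCR and 74.5% in TCR, so a majority on the TCR side was common to these rows. Without the minimum and with the 2 contigs left out by name, the majority turned, with 47 of the 91 rows higher in MCR and 44 in TCR, as it did over the whole table (4210 and 3609 rows). Every MCR library lay above every TCR library in 17 contigs and below in 40, and the shares without overlap were 10.7% and 20.3% of all contigs tested, 31% in either direction. In the rows of the table past the CPM minimum this share was 93.7%, and the rule drew on the same contrast, so nothing is read from these counts. In bulk RNA, fewer cells of a type and less RNA per cell cannot be told apart.

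The model fitted across all contigs (edgeR's quasi-likelihood test, with an adjusted p under 0.05 and a log2 fold change of at least 1 in size) called 14 transporter contigs for MCR and 25 for TCR. The same rule called 2.4% of all contigs tested higher in MCR and 5.98% higher in TCR, 8.39% in either direction, and 70% of the table rows past the CPM minimum (16.9% for MCR and 53.2% for TCR). With the replicate number as a block the counts were 17 and 41, beside 20.1% and 15.4% of all contigs and 35.5% in either direction. Without TCR1 the counts fell to 5 and 3, and without TCR2 to 6 and 5. Calls over all contigs tested fell as well, from 1196 and 2981 of 49813. They were 208 and 327 of 49837 without TCR1, and 254 and 397 of 49975 without TCR2. Higher in TCR, the call count was 15 without TCR3, 16 without MCR1, 14 without MCR2 and 31 without MCR3. Over all contigs tested it was, in the same order, 2654 of 51134, 1563 of 49736, 1399 of 44182 and 4260 of 55719.

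The families split differently. Of the PIP aquaporins, 7 were on the MCR side and 6 on the TCR side, and their median log2 fold change was 3.68. That median is the smallest value on the MCR side, and the next lower value was -1.34. The summed CPM of the 13 PIP contigs went the other way, with 3214.5, 3542 and 5799 in TCR and 2709.5, 2462.5 and 3107 in MCR. All 5 TIP contigs were higher in TCR, with a median of -3.34. NIP contigs were divided into 1 and 4, with a median of -2.34, and the only SIP contig was higher in MCR. MATE contigs were higher in TCR in 14 of 17 cases (median -3.49), MtN21-like contigs in 6 of 9 (median -2.83) and ABC contigs in 6 of 9 (median -2.32). Over all rows with the words of the rule, without the CPM minimum, 21 of 28 ABC contigs and 16 of 31 aquaporins were higher in MCR, 4 of 9 TIP contigs among them, so these splits depend on the minimum. MATE contigs remained mostly on the TCR side there, in 14 of 19 cases, as did MtN21-like contigs, in 8 of 13. The family medians above are the same with the contig without counts in TCR placed at its lower bound.

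**Figure D1:**
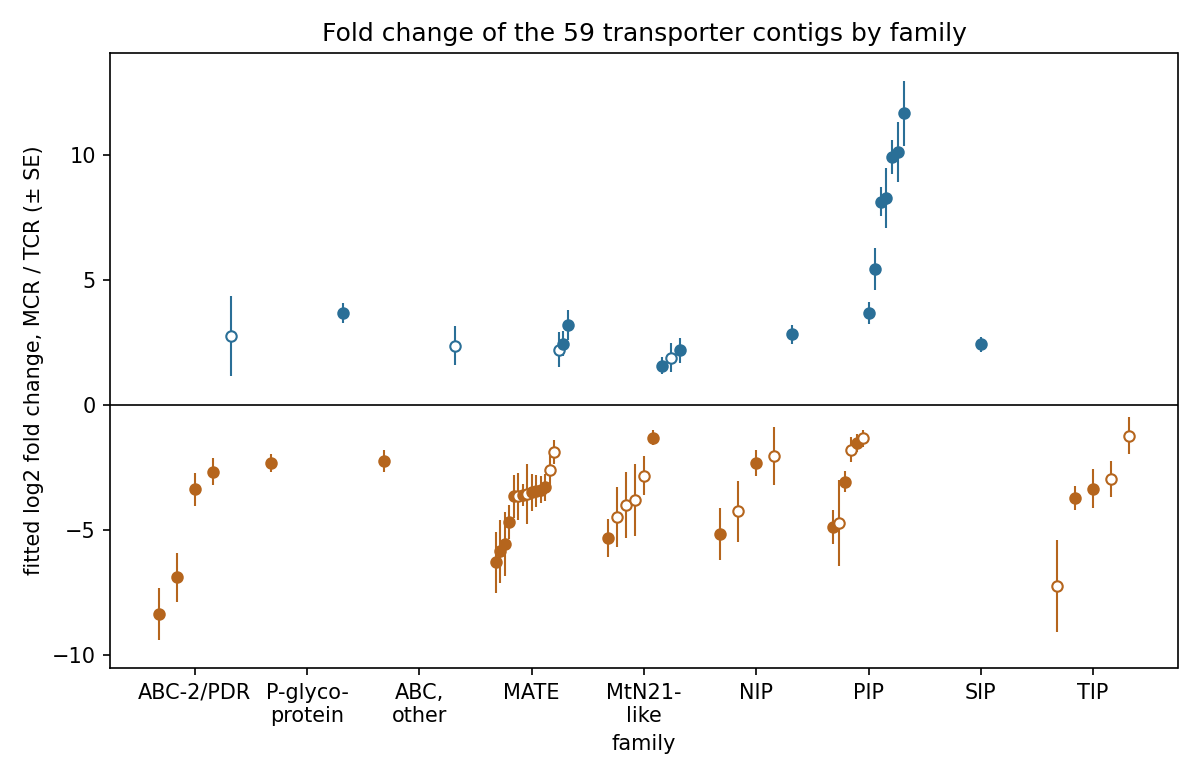
Fitted log2 fold change of MCR over TCR for each of the 59 transporter contigs, by family. Bars are approximate standard errors, derived as |log2 fold change| over the root of F. Blue circles are higher in MCR and brown circles higher in TCR, filled circles were called and open circles were not. The PIP contigs reach furthest upward, all 5 TIP contigs lie below 0, and the topmost PIP value belongs to a contig without counts in TCR, so its fitted value is no estimate of its fold.

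PIP aquaporins of the PIP2 group form water channels in the plasma membrane, and PIP1 proteins in several species reach that membrane together with a PIP2 partner. The contigs matching PIP2;5 were absent or nearly absent in root tips. TRINITY_DN2012_c5_g1 had 0, 0.123 and 0.163 CPM in TCR and 101, 94.9 and 118 CPM in MCR, a log2 fold change of 9.92 ± 0.67 (approximate SE, n = 3 libraries per root type, as for every fit below). The other PIP2;5 contig, TRINITY_DN55284_c0_g1, had 0.0716, 0.245 and 0.109 CPM in TCR and 29.1, 50.2 and 46.1 CPM in MCR. Every MCR library lay far above every TCR library in both contigs, and the MCR libraries were closest to each other in TRINITY_DN2012_c5_g1. The contig matching PIP2;6, TRINITY_DN261524_c0_g1, had 705 counts over the MCR libraries (12.6, 5.99 and 25.8 CPM) and 2 over the TCR libraries, a ratio of 363 with an exact binomial 95% interval from 100.2 to 3005. TRINITY_DN55284_c0_g1 and TRINITY_DN261524_c0_g1 were picked for mention after their values were seen, and the intervals here cover counting error only.

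PIP2;2, whose Arabidopsis gene lies at chr2:15613624-15614791 in TAIR10 and encodes 285 residues, was the match of 4 contigs on opposite sides. TRINITY_DN4228_c0_g1 had 60.3, 62.0 and 85.9 CPM in TCR and 1337, 490.7 and 832 CPM in MCR (log2 fold change 3.68 ± 0.45). TRINITY_DN3801_c2_g1 had 0, 0.306 and 0.163 CPM in TCR and 107, 64.2 and 390.3 CPM in MCR (10.11 ± 1.19). In both, every MCR library exceeded every TCR library, with MCR2 lowest among the MCR libraries. The remaining contigs had the reverse order. TRINITY_DN3884_c0_g1 had 352, 420.1 and 1039.6 CPM in TCR and 110.1, 243 and 171 CPM in MCR (-1.79 ± 0.51), and TRINITY_DN14747_c0_g1 had 47.4, 47.9 and 89.4 CPM in TCR and 4.00, 1.31 and 0.912 CPM in MCR (-4.89 ± 0.68). TCR3 was the highest library in both. The 4 contigs summed to 459, 530.3 and 1215 CPM in TCR and 1558, 799.7 and 1394 CPM in MCR, so the sums overlapped between root types although no single contig did. Whether these contigs come from 1 Hakea gene is not known.

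PIP1;4 was also matched by 4 contigs, at chr4:186143-187531 in TAIR10 with 287 residues. The most abundant PIP contig of all, TRINITY_DN1776_c1_g1, had 2417, 2687 and 4079 CPM in TCR and 868.5, 1398.5 and 1358.5 CPM in MCR, a log2 fold change of -1.34 ± 0.35. TRINITY_DN3801_c1_g1 had 180.1, 164 and 335 CPM in TCR and 84.3, 62.3 and 91.6 CPM in MCR (-1.51 ± 0.36). TRINITY_DN3801_c1_g3 was level across the tips, at 154, 156 and 148 CPM, and had 25.5, 19.8 and 9.06 CPM in MCR (-3.08 ± 0.42). These contigs were higher in every TCR library than in any MCR library. TRINITY_DN3801_c1_g2, by contrast, had no counts in any TCR library and 25.2, 7.55 and 42.7 CPM in MCR. With a floor of 3 counts for the TCR libraries together, it was at least 410.1-fold higher in MCR. The 4 contigs matching PIP1;4 summed to 2751, 3008 and 4562 CPM in TCR and 1004, 1488 and 1502 CPM in MCR.

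PIP1;1 was matched by a contig in each direction, both at low level. TRINITY_DN9816_c0_g1 had 0.286, 0.613 and 0.218 CPM in TCR and 4.75, 23.6 and 20.3 CPM in MCR (5.42 ± 0.83). TRINITY_DN1776_c5_g1 had 3.87, 3.49 and 20.9 CPM in TCR and 0, 0 and 1.03 CPM in MCR (-4.73 ± 1.72), its level in tips resting mainly on TCR3. The sums of both contigs, 4.15, 4.11 and 21.1 CPM in TCR and 4.75, 23.6 and 21.3 CPM in MCR, overlapped.

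**Figure D2:**
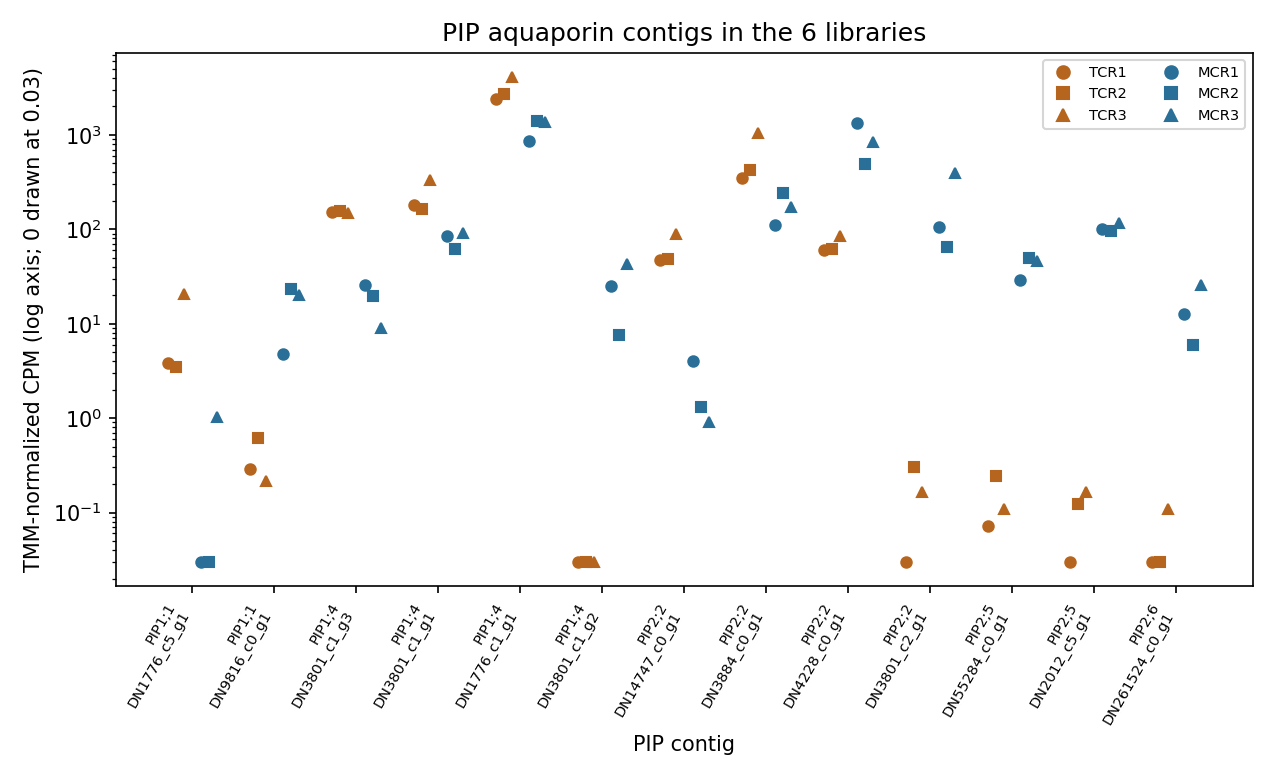
TMM-normalized CPM of the 13 PIP contigs in the 6 libraries, on a log axis, with values of 0 drawn at 0.03, brown for TCR and blue for MCR. Contigs of PIP1;1, PIP1;4 and PIP2;2 lie on both sides, whereas both PIP2;5 contigs and the PIP2;6 contig stay below 0.3 CPM in TCR and reach from 5.99 to 118 CPM in MCR.

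Contigs of opposite direction occurred within a single Trinity cluster, the set of contigs that the assembler groups by shared sequence. Cluster DN3801 held 4 transporter contigs, of which TRINITY_DN3801_c1_g2 and TRINITY_DN3801_c2_g1 were higher in MCR and TRINITY_DN3801_c1_g1 and TRINITY_DN3801_c1_g3 higher in TCR. The count table holds 7 contigs of the cluster, and 3 of them are not in the annotated table. One of these, TRINITY_DN3801_c0_g1, had 30.8, 36.5 and 44.9 CPM in TCR and 800.3, 295 and 546 CPM in MCR, and TRINITY_DN3801_c3_g1 had 66.6, 69.6 and 53.4 CPM in TCR and 56.9, 51.6 and 59.4 CPM in MCR. These carry no gene name here. Reads of near-identical contigs can be divided between them by the quantification, so values of single contigs of a cluster are less certain than their sum.

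When the PIP contigs among the members were summed by group, the mean sums of PIP1 and PIP2 lay on opposite sides. Only contigs chosen for a difference between root types enter these sums, so they are not totals of PIP1 or PIP2 transcript. The same holds for the other family sums given here. The 6 PIP1 contigs summed to 2755, 3012 and 4583 CPM in TCR and 1008, 1512 and 1523 CPM in MCR, a log2 ratio of the means of -1.36. The 7 PIP2 contigs summed to 459, 531 and 1215 CPM in TCR and 1701, 951 and 1584 CPM in MCR, a log2 ratio of 0.94. PIP1 sums did not overlap between root types, whereas the PIP2 sum of TCR3 lay above that of MCR2. Most of the PIP1 sum came from TRINITY_DN1776_c1_g1. CPM values are not divided by contig length, so a sum weights long and abundant contigs more.

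TIP aquaporins move water across the vacuole membrane, and TIP1;1 is a major one in growing Arabidopsis roots. Its match, at chr2:15445490-15446336 in TAIR10 with 251 residues, was shared by 3 contigs. TRINITY_DN1192_c0_g1 had 900.7, 996 and 1957 CPM in TCR and 60.2, 46.6 and 273 CPM in MCR, a log2 fold change of -3.34 ± 0.77. TRINITY_DN1192_c0_g2, of the same cluster, had 263, 259.8 and 337 CPM in TCR and 34.5, 9.98 and 20.7 CPM in MCR (-3.72 ± 0.49). TRINITY_DN38527_c0_g3 had 463, 450.2 and 1255 CPM in TCR and 179, 34.6 and 64.9 CPM in MCR (-2.96 ± 0.72). All TCR libraries exceeded all MCR libraries in each of these contigs, and TCR3 was the highest. The 3 contigs matching TIP1;1 summed to 1627, 1706 and 3549 CPM in TCR and 274, 91.1 and 358 CPM in MCR.

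TIP2;3, which carries water and ammonia in Arabidopsis, matched the most abundant TIP contig. TRINITY_DN1476_c0_g1 (match at chr5:19248509-19249466 in TAIR10, 250.0 residues) had 1255, 1458 and 2815 CPM in TCR and 216, 440.3 and 1709 CPM in MCR (-1.22 ± 0.75). MCR3 lay above TCR1 and TCR2, so this contig overlapped between root types, as only 1 other of the 59 contigs did. The contig matching TIP1;3, TRINITY_DN3563_c0_g1, had 1.36, 1.72 and 39.4 CPM in TCR and 0.204, 0 and 0.0608 CPM in MCR. Every TCR library lay above every MCR library, but the level in tips rested on TCR3, and without it the log2 fold change was -3.99 in place of -7.24. This contig was uneven, meaning that within the root type with more transcript the lowest library had under 0.1 of the mean of the other 2. The 5 TIP contigs summed to 2883, 3166 and 6404 CPM in TCR and 490, 531 and 2068 CPM in MCR, with MCR3 as the MCR library closest to the tips.

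NIP5;1 and NIP6;1 are boric acid channels in Arabidopsis, NIP5;1 for uptake by roots and NIP6;1 in shoots. Their matches were on opposite sides in H. laurina. The NIP5;1 contig, TRINITY_DN1073_c0_g1, had 5.73, 6.13 and 10.1 CPM in TCR and 60.1, 59.8 and 35.9 CPM in MCR (2.82 ± 0.39). The NIP6;1 contig TRINITY_DN2831_c2_g1 had 18.3, 22.3 and 9.91 CPM in TCR and 2.31, 5.05 and 2.61 CPM in MCR (-2.34 ± 0.52), and TRINITY_DN18683_c0_g1 had 10.95, 13.1 and 8.06 CPM in TCR and 0.0679, 0.0624 and 0.730 CPM in MCR (-5.17 ± 1.04). None of these contigs overlapped between root types. The sums of the 5 NIP contigs, 54.0, 53.9 and 41.0 CPM in TCR and 70.4, 65.8 and 39.6 CPM in MCR, overlapped between root types. This overlap depended on the CPM minimum. Without the minimum, 7 NIP contigs summed to 54.0, 54.0 and 41.0 CPM in TCR and 71.5, 79.2 and 55.9 CPM in MCR, without overlap.

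NIP1;2, which takes up aluminium-malate in Arabidopsis roots, matched TRINITY_DN1780_c0_g1 with 16.9, 11.2 and 8.55 CPM in TCR and 7.74, 0.873 and 0.182 CPM in MCR (-2.06 ± 1.16). MCR1 lay just below TCR3 in that contig, which was not called. Another NIP1;2 contig, below the CPM minimum and so no member, was on the opposite side and was called higher in MCR. TRINITY_DN10447_c0_g1 had 0, 0.0613 and 0 CPM in TCR and 0.611, 8.61 and 16.3 CPM in MCR, or 415 counts in MCR against 1 in TCR (ratio 428, 95% interval 76.3 to 16932), with MCR1 far below the other MCR libraries. The malate channel contig of the study, HalALMT1 (TRINITY_DN845_c1_g1), is no member of these families and had 4.87, 4.72 and 11.8 CPM in TCR and 25.7, 28.1 and 29.0 CPM in MCR. SIP2;1, an aquaporin family member located in the endoplasmic reticulum in Arabidopsis, matched TRINITY_DN5198_c0_g1, which had 29.99, 28.9 and 17.4 CPM in TCR and 153, 123 and 131 CPM in MCR (2.42 ± 0.31). Its MCR values were among the most even of the contigs higher in MCR. The last aquaporin, a NIP4;2 contig, had a mean of 2.59 CPM in TCR.

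**Figure D3:**
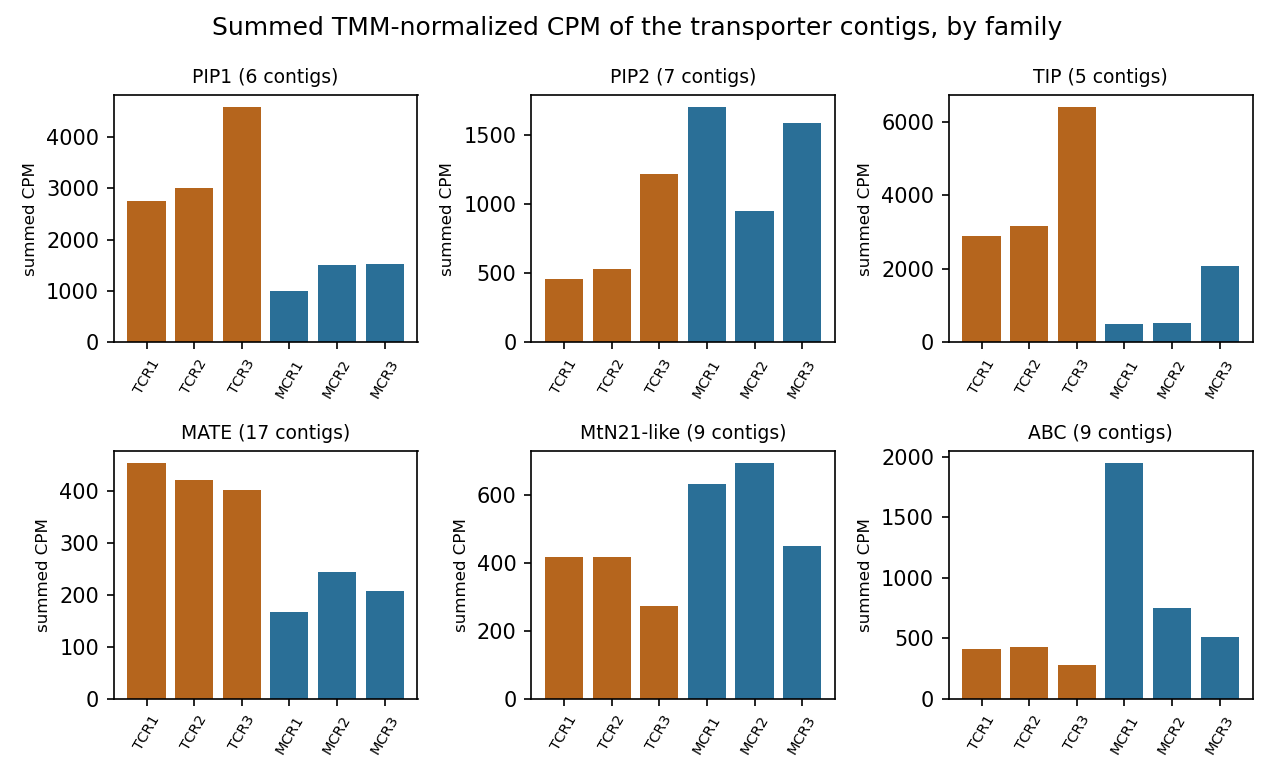
Summed TMM-normalized CPM of the member contigs of 6 groups in each library, each panel with its own linear axis from 0. Bars for PIP1, TIP and MATE are higher in all TCR libraries (brown) than in the MCR libraries (blue), the PIP2 sum of TCR3 exceeds that of MCR2, and the MtN21-like and ABC sums are higher in all MCR libraries.

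MATE proteins of plants export toxins, flavonoids, hormones and organic anions. Most of the MATE contigs here were higher in root tips, and their 17 contigs summed to 454, 420.4 and 401 CPM in TCR and 168, 244 and 207.5 CPM in MCR. With the 2 MATE contigs left out by name the mean of the MCR sums was 325 CPM in place of 206 CPM, and the sums were 290, 363 and 322 CPM in MCR and 454, 421 and 401.5 CPM in TCR, still without overlap. TT12 transports proanthocyanidin precursors into the vacuole of the Arabidopsis seed coat. Its contig TRINITY_DN34413_c0_g1 had 93.6, 95.9 and 79.1 CPM in TCR and 16.8, 2.43 and 2.07 CPM in MCR (-3.66 ± 0.85). Its contig TRINITY_DN11165_c1_g1 had 63.1, 57.3 and 35.7 CPM in TCR and 1.70, 3.74 and 0.669 CPM in MCR (-4.67 ± 0.67). Every TCR library stood above every MCR library in both. The TT12 sums were 157, 153 and 115 CPM in TCR and 18.5, 6.18 and 2.74 CPM in MCR.

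A further pair of MATE contigs was named by size among those higher in TCR. The AT4G00350 contig, TRINITY_DN196_c1_g1, had 103, 88.7 and 76.6 CPM in TCR and 10.04, 13.9 and 3.34 CPM in MCR (-3.30 ± 0.53). The AT3G03620 contig, TRINITY_DN4954_c0_g1, had 32.1, 30.5 and 37.8 CPM in TCR and 4.34, 1.81 and 2.13 CPM in MCR (-3.60 ± 0.45). Neither overlapped between root types, and the TCR libraries differed little from each other. Another 9 MATE contigs higher in TCR had mean levels there from 1.34 to 35.1 CPM and log2 fold changes from -6.29 to -1.90, and 6 of these were called.

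ALF5, required for toxin resistance and lateral root formation in Arabidopsis (chr3:8454361-8456588 in TAIR10, 477 residues), matched a pair of contigs of the same Trinity cluster with opposite preference. TRINITY_DN1839_c0_g1 had 8.52, 9.38 and 7.68 CPM in TCR and 23.0, 88.1 and 123.5 CPM in MCR (3.20 ± 0.60). TRINITY_DN1839_c0_g2 had 31.2, 26.1 and 33.6 CPM in TCR and 1.70, 3.37 and 9.85 CPM in MCR (-2.60 ± 0.65). Within MCR both contigs were lowest in MCR1 and highest in MCR3. Their sums, 39.7, 35.5 and 41.3 CPM in TCR and 24.7, 91.4 and 133 CPM in MCR, overlapped because of MCR1. No other contig of the cluster is in the count table, and the reads of both may have been divided by the quantification.

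The remaining MATE contigs higher in MCR matched AT1G33100 and AT1G23300. TRINITY_DN22765_c0_g1 (AT1G33100) had 12.7, 11.7 and 7.35 CPM in TCR and 39.9, 98.2 and 33.6 CPM in MCR (2.44 ± 0.50). The gene next to AT1G33100 among those matched, AT1G33110, was the match of 2 contigs higher in TCR that summed to 13.4, 11.7 and 11.9 CPM in TCR and 1.29, 0.624 and 1.28 CPM in MCR. The Arabidopsis genes lie at chr1:11997683-12001308 (AT1G33100) and chr1:12005084-12008618 (AT1G33110) in TAIR10, and where the Hakea copies lie is unknown. TRINITY_DN484_c1_g2 (AT1G23300) had 8.66, 7.48 and 3.21 CPM in TCR and 55.2, 25.4 and 8.88 CPM in MCR (2.21 ± 0.71), with MCR3 only just above TCR1. Of the 2 MATE contigs left out by name, TRINITY_DN255355_c0_g1, which also matches AT1G33100, had 0.0716, 0.245 and 0.490 CPM in TCR and 114, 106 and 102 CPM in MCR.

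MtN21-like contigs were fewer on the MCR side but more abundant there. The 9 contigs summed to 417, 418 and 272 CPM in TCR and 633, 694 and 450.2 CPM in MCR, although 6 of them were higher in TCR. TRINITY_DN5882_c1_g1 (AT5G07050) had 82.7, 93.5 and 112 CPM in TCR and 417, 228 and 211 CPM in MCR (1.57 ± 0.35). TRINITY_DN4196_c0_g1 (AT4G01450) had 78.7, 82.4 and 27.9 CPM in TCR and 126, 390.6 and 182 CPM in MCR (1.89 ± 0.57). These contigs made up most of the MCR sum. TRINITY_DN4519_c1_g1 (AT5G40230) was less abundant, with 7.94, 6.80 and 3.05 CPM in TCR and 24.5, 38.8 and 17.9 CPM in MCR (2.19 ± 0.50).

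Among the MtN21-like contigs higher in TCR, the pair matching AT4G30420 was nearly absent from MCR2. TRINITY_DN8464_c0_g1 had 52.4, 45.6 and 18.3 CPM in TCR and 7.47, 0 and 0.912 CPM in MCR (-3.80 ± 1.42), and TRINITY_DN4289_c0_g1 had 18.3, 18.5 and 7.19 CPM in TCR and 0.475, 0.125 and 0.486 CPM in MCR (-5.31 ± 0.75). TRINITY_DN4039_c0_g2 (AT2G37460) had 42.9, 35.9 and 10.6 CPM in TCR and 3.53, 0.187 and 0.304 CPM in MCR (-4.47 ± 1.19). TCR3 was the lowest TCR library in all of these and still lay above every MCR library. The most abundant contig higher in TCR, TRINITY_DN6404_c0_g1 (AT1G06890), had 107, 111 and 79.4 CPM in TCR and 50.3, 34.8 and 35.1 CPM in MCR (-1.31 ± 0.29). It was placed in this family by the description of its match alone, which does not give its substrate. The remaining pair had mean levels of 9.75 and 12.02 CPM in TCR, and neither was called.

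Among the ABC transporters, P-glycoproteins belong to the ABCB group, several of which carry auxin in Arabidopsis. Contigs were placed here by the word P-glycoprotein in their description, so contigs described only as ABC transporters, such as TRINITY_DN2190_c0_g2 below, may belong to this group too. The PGP9 contig, TRINITY_DN9162_c1_g1 (chr4:10022205-10027280 in TAIR10, 1236 residues), had 32.4, 32.4 and 20.5 CPM in TCR and 503, 254 and 324 CPM in MCR (3.67 ± 0.39). The PGP20 contig, TRINITY_DN8625_c0_g1, had 31.4, 32.4 and 20.6 CPM in TCR and 5.70, 6.30 and 4.93 CPM in MCR (-2.32 ± 0.35). Levels of these contigs in each TCR library were nearly the same, and their MCR levels lay far apart on either side. Since contig lengths are not in the files, levels of different contigs were not compared per length.

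ABCG14 exports cytokinin from Arabidopsis roots toward the shoot. Its contig TRINITY_DN536_c1_g1 had 94.0, 102 and 110.3 CPM in TCR and 35.8, 12.5 and 15.8 CPM in MCR (-2.26 ± 0.44). TRINITY_DN27346_c0_g1 (AT2G28070) had 45.9, 49.4 and 32.6 CPM in TCR and 11.3, 5.99 and 2.74 CPM in MCR (-2.68 ± 0.54). TRINITY_DN6891_c0_g1 (AT5G06530) had 19.7, 22.4 and 32.01 CPM in TCR and 4.14, 2.25 and 0.730 CPM in MCR (-3.38 ± 0.65). All 3 stood higher in each TCR library than in any MCR library. The contigs matching AT2G13610 and AT5G52860, with means of 9.51 and 8.44 CPM in TCR, were all but limited to tips, with 452 counts over the TCR libraries against 1 in MCR for the first (ratio 439, 95% interval 78.3 to 17363) and 404 against 3 for the second (ratio 131, 44.4 to 636).

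Large ABC levels in MCR rested on few contigs and unequally on the libraries. TRINITY_DN2190_c0_g2 (AT3G28345) had 150.2, 162 and 47.9 CPM in TCR and 1218, 463 and 162 CPM in MCR (2.36 ± 0.78), with MCR3 above TCR2 by under 1 CPM. PEN3, also named ABCG36, exports defence compounds at the plasma membrane of Arabidopsis. Its contig TRINITY_DN1107_c2_g2 had 13.8, 11.2 and 1.36 CPM in TCR and 172, 4.74 and 2.55 CPM in MCR (2.77 ± 1.60). Only MCR1 was high, the root types overlapped, the contig was uneven, and without MCR1 the log2 fold change was -0.92. The 9 ABC contigs summed to 408, 432 and 278 CPM in TCR and 1951, 749 and 514 CPM in MCR.

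**Figure D4:**
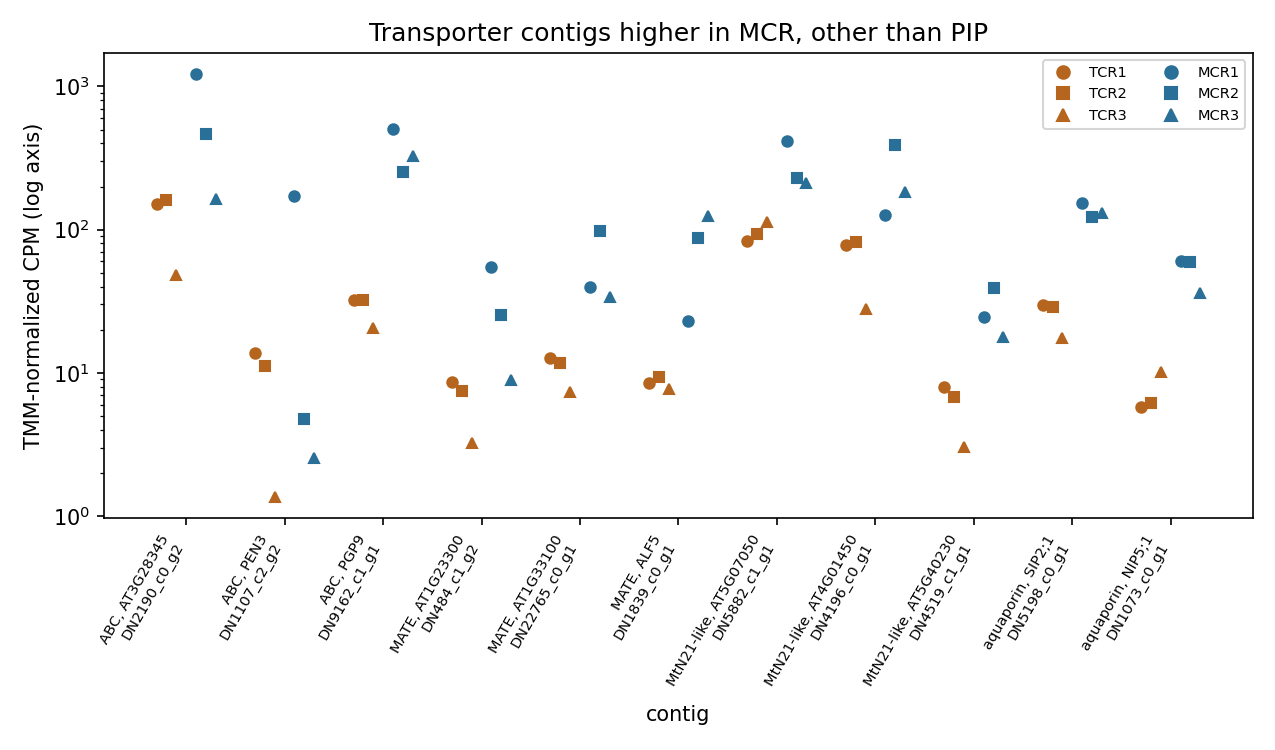
TMM-normalized CPM, on a log axis, of the 11 transporter contigs higher in MCR that are no PIP, with brown symbols for TCR and blue symbols for MCR libraries. The PEN3 contig is high in MCR1 alone, at 172 CPM against 4.74 and 2.55 CPM in MCR2 and MCR3, whereas the SIP2;1 contig has 123 to 153 CPM in all MCR libraries.

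Among the contigs higher in TCR, the families differed in the place of TCR3. In 11 of 15 aquaporins TCR3 was the highest TCR library (73.3%), against 617 of the 3429 table rows higher in TCR (18.0%). The median log2 ratio of TCR3 to the mean of TCR1 and TCR2, with 0.5 CPM added, was 0.96 in the aquaporins and -0.60 in those rows. MtN21-like contigs went the other way, with TCR3 highest in 0 of 6 and a median of -1.35. MATE and ABC contigs lay between, with TCR3 highest in 6 of 14 (median -0.02) and 2 of 6 (median -0.58). Among the aquaporins, TCR3 was highest in all 5 TIP contigs. It was not highest in both NIP6;1 contigs, the NIP1;2 contig TRINITY_DN1780_c0_g1 and the PIP1;4 contig TRINITY_DN3801_c1_g3. Several of the 11 aquaporins matched the same Arabidopsis gene, as the TIP1;1 contigs did. These are descriptions of 1 library over contigs that share it. In the same library the root tip regulators PLT1 and WOX5 summed to 6.26 CPM, against 40.6 and 38.5 CPM in TCR1 and TCR2 and at most 0.136 CPM in MCR. A contig for the xylem cellulose synthase CESA4, TRINITY_DN3340_c1_g1, had 99.3, 84.8 and 179 CPM in TCR and 12.9, 6.74 and 10.6 CPM in MCR, and was highest in TCR3. The other CESA4 contig, TRINITY_DN105661_c0_g1, was higher in MCR, with 2.22, 2.21 and 0.0544 CPM in TCR and 10.7, 21.5 and 0 CPM in MCR. Endodermal CASP markers were represented by 3 contigs, all higher in TCR, which summed to 48.8, 68.2 and 61.7 CPM in TCR and 4.14, 3.68 and 26.8 CPM in MCR. TCR3 was the lowest TCR library in 2 of the 3, which match AT5G15290, and the highest in the other. The part of these markers in the aquaporin levels was not tested.

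**Figure D5:**
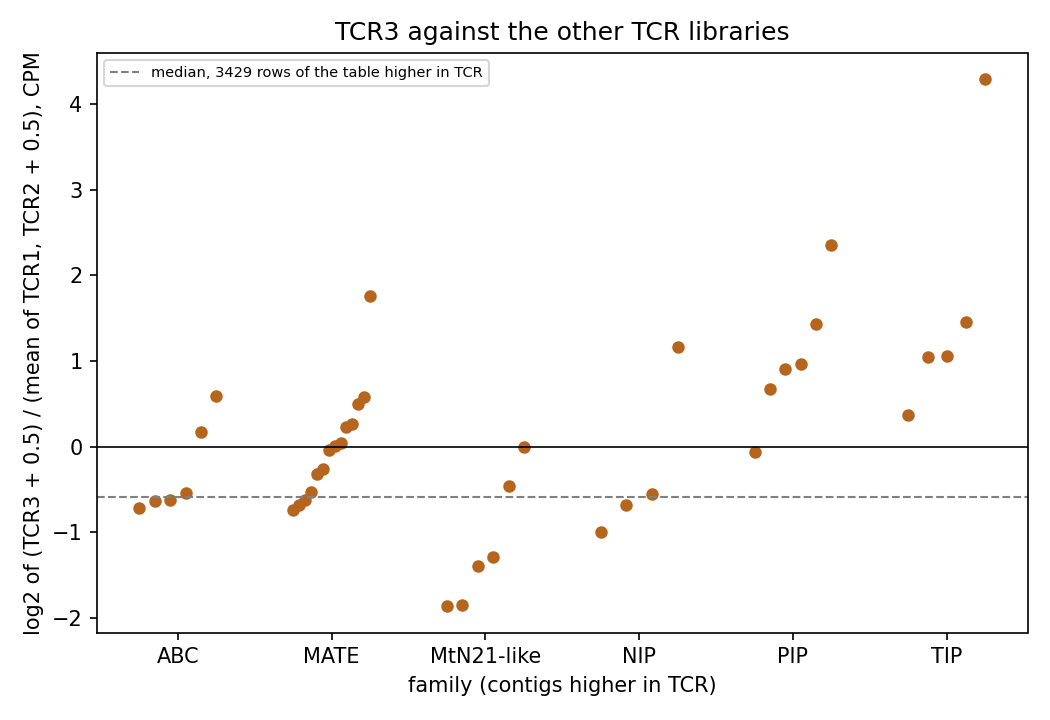
Log2 ratio of TCR3 to the mean of TCR1 and TCR2, with 0.5 CPM added, for the 41 transporter contigs higher in TCR, by family, with a dashed line at the median of the 3429 rows of the table higher in TCR (-0.60). All 5 TIP contigs lie above 0 and no MtN21-like contig does.

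Members of the same protein families whose descriptions use other words were counted beside these contigs, together with the sugar channels of the SWEET group, which the files describe as nodulin MtN3 proteins. They were 20 contigs of 10 Arabidopsis genes, 6 higher in MCR and 14 in TCR, of which 3 and 5 were called. Of all table rows past the minimum, 25.5% were higher in MCR, and 16.9% and 53.2% were called in the respective directions, and nothing is read from these counts. PDR9, an ABCG exporter of phenolic compounds in Arabidopsis roots, matched TRINITY_DN550_c0_g2 with 0.429, 0.307 and 0.272 CPM in TCR and 33.1, 68.4 and 32.5 CPM in MCR. PDR12, an importer of abscisic acid in Arabidopsis, again had contigs of the same cluster on both sides, in DN1849 and in DN3090. TRINITY_DN1849_c0_g1 had 43.1, 46.6 and 60.2 CPM in TCR and 151, 241 and 982 CPM in MCR, and TRINITY_DN1849_c0_g2 had 38.9, 46.3 and 29.9 CPM in TCR and 6.52, 4.68 and 3.89 CPM in MCR. TRINITY_DN3090_c0_g1 had 31.4, 42.8 and 31.25 CPM in TCR and 584, 141 and 80.9 CPM in MCR, whereas TRINITY_DN3090_c1_g1 was higher in TCR. The PDR12 contigs TRINITY_DN75_c0_g2 and TRINITY_DN75_c0_g3 were both higher in TCR. Both contigs of the vacuolar conjugate pump MRP3 were higher in MCR, and both of WAT1, a tonoplast auxin exporter related to the MtN21-like proteins, were higher in TCR, as were all 4 of the sugar channel SWEET3. The remaining sugar channel contig, TRINITY_DN109_c2_g1 (SWEET17), was higher in MCR on average, with 13.5, 7.48 and 6.70 CPM in TCR and 64.7, 62.5 and 9.12 CPM in MCR, and overlapped through MCR3.

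Auxin carriers, which work beside ABCB proteins, were counted too, but without the CPM minimum. The table held 6 of 13 listed genes with 11 contigs, of which 10 lay on the TCR side (9 called) and 1 on the MCR side (not called). Of the table rows past the CPM minimum 74.5% lay on the TCR side and 53.2% were called there, beside 5.98% of all contigs tested. Their contigs summed to 541, 602 and 401 CPM in TCR and 94.6, 92.9 and 57.4 CPM in MCR. Of 9 enzymes that make suberin monomers exported by ABCG proteins, 2 were in the table with 3 contigs, and none was called in either direction. CYP86A1, a fatty acid hydroxylase of suberin synthesis, had 41.0, 47.0 and 118 CPM in TCR and 51.5, 30.4 and 8.94 CPM in MCR, which overlapped. Both remaining contigs matched FAR5 and were higher in MCR on average. Among the MCR libraries they were found in MCR2 alone, at 1.87 and 20.0 CPM.

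The CPM minimum shaped the set on the MCR side. Of 30 rows with the words of the rule that fell below it, 27 lay on the MCR side and 3 on the TCR side. Called were 1 and 2, beside 2.4% and 5.98% of all contigs tested. The whole table held 4210 rows higher in MCR and 3609 in TCR, and past the minimum 1175 and 3429. Rows below the minimum thus lay mostly on the MCR side in the whole table too, and nothing is read from these counts. Of the 27, 20 had no count in MCR3 and 26 had none in TCR3. Among the 30 rows, 6 matched the same Arabidopsis gene as a member, 5 of them higher in MCR, which included a contig each for TIP1;3, TIP2;3 and NIP1;2 and a pair for PEN3. The PEN3 contig TRINITY_DN254487_c0_g1 had 1.43, 2.08 and 0 CPM in TCR and 12.2, 14.2 and 0.0608 CPM in MCR. On the CPM scale of the deposited table, the contigs just inside the minimum matched NIP4;2, AT1G33110 and AT2G38510, with deciding values of 1.14, 1.16 and 1.30 CPM, where the deciding value is the lowest CPM in the root type with more transcript. Just outside lay 2 MtN21-like contigs matching AT1G09380 and AT3G18200, with 0.889 and 0.754 CPM, and the ABCA1 contig with 0.647 CPM. The AT1G09380 contig reached 20.8 and 12.7 CPM in TCR1 and TCR2 and was kept out by TCR3 alone.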

How the data were processed

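RNA of 3 MCR and 3 TCR libraries was sequenced as 150 bp paired-end reads, with poly(A) selection and a strand-marking kit. The authors trimmed with Trimmomatic 0.39, built contigs with Trinity and quantified the contigs with Salmon 1.9.0, and the estimated counts they deposited are not normalized. The CPM values of the deposited table of annotated contigs were normalized by the authors with 0.01 CPM added. Its log2 fold changes, p-values and q-values come from the authors' own comparison with edgeR 4.0.14 and were not used. A contig is named by its closest Arabidopsis match (TAIR10) in that table, and coordinates are those of the Arabidopsis gene.

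The members were selected on the CPM columns and descriptions of the deposited table, and the members, the accompanying gene lists and the rule for named contigs were chosen with earlier results of these data known. Estimated counts were rounded to whole numbers. Contigs were kept if the mean CPM of any root type reached 0.4, normalized with TMM factors from 0.868 to 1.18 and compared with edgeR 4.0.16 (quasi-likelihood test, default settings, Benjamini-Hochberg adjustment over 49813 contigs) in R 4.3.3. The common biological coefficient of variation was 0.885. Standard errors (SE) of fold changes were derived as |log2 fold change| over the root of F. They are approximate and were not given by the fit itself. Tables were made with Python 3.11.15, pandas 2.3.3, numpy 2.4.6 and scipy 1.17.1, and figures with matplotlib 3.10.9.

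Named with all libraries were, in each family and higher root type, the 3 contigs with the largest absolute log2 fold change at a mean of 10 CPM or more and the 2 with the highest mean CPM, the contigs of genes matched by 3 or more contigs or by contigs of both directions, and uneven contigs. Contigs outside this rule were picked after their values were seen.

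Pairing by number was checked over 14706 contigs of more than 5 CPM on average. The correlation of deviations from the root type means (log2 CPM with 0.5 added) was 0.336 for number 1, 0.363 for number 2 and 0.477 for number 3. Among other pairs it was 0.316 for TCR2 with MCR1, 0.185 for TCR1 with MCR2 and negative elsewhere. The numbers come from the titles, and the number served as a block in an alternative fit.

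Alternatives were the replicate block, other filters on low counts, DESeq2 1.42.0, the exact test of edgeR, voom of limma 3.58.1, scaling by RLE or by library size, calls without a minimum fold, each Arabidopsis gene counted in place of its contigs, other member minimums and each library left out in turn.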

Additional observations from a re-analysis of the deposited data

How the results depend on the processing

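The numbers of transporter contigs called, 14 higher in MCR and 25 higher in TCR, depended on the filter and on single libraries. Removing only contigs without a read gave 41 higher in TCR, beside 4281 of all 183826 contigs tested in that fit. The replicate block, which takes libraries of the same title number together, also gave 41 in TCR, beside 17 in MCR. Whether these numbers mark true pairs is not known. With each library left out in turn the counts ranged from 5 to 16 in MCR and from 3 to 31 in TCR, lowest without TCR1. Calls over all contigs tested ranged from 208 to 3200 in MCR and from 327 to 4260 in TCR over the same fits, also lowest without TCR1. The cause of these changes was not tested, except that a fit without a library has fewer samples. Under the other alternatives the counts lay between 12 and 18 in MCR and between 19 and 37 in TCR. The median log2 fold change of all contigs tested moved from 0.57 under TMM to 0.84 under RLE scaling and 0.37 under plain library sizes. Of the 59 contigs, 2 were uneven at a fraction of 0.1, 3 at 0.2 and 1 at 0.05, and a CPM minimum of 0.5 or 5 for members gave 63 or 50 contigs. Over 645 values of the named contigs under alternatives, 496 kept their direction and side of the threshold, 79 lost and 69 gained a call, and 1 reversed, the PEN3 contig TRINITY_DN1107_c2_g2 (2.77 in all libraries, -0.92 without MCR1 and between -0.92 and 3.65 over the libraries left out). The planned description of percent identity to the Arabidopsis match was not run. With 3 libraries per root type and estimated counts, contigs below about 1 CPM were not resolved, and contigs of near-identical sequence are uncertain.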
